A study of Mus musculus with 12 samples.

Results

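Keratin-associated protein genes (*Krtap*) encode the small proteins that surround the keratin filaments of the hair shaft. The set described here holds the protein-coding mouse genes with a symbol starting with *Krtap* whose deposited counts summed to at least 10 over the 12 libraries, which gave 56 of the 52636 genes in the count table. The members were selected on that sum alone. Release 21 of the mouse GENCODE annotation (GRCm38) lists 58 such symbols, 57 of them protein-coding. *Krtap13*, with 0 counts, fell outside the threshold, and *Krtap9-5*, with 66 counts, was the member nearest to it on the inside. *Krtap19-9a* is annotated as a processed pseudogene and was left out.

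RNA-seq was run on full-thickness skin from 4 groups of 3 mice on the C57BL/6J background, labelled as 3 months old. Dorsal skin had been shaved and then given topical applications for 14 days. The WT group has intact *Cdc42* (mice carrying 1 or both floxed alleles but no Cre, in the study's genotyping scheme) and received the vehicle (normal saline with HPMC), and the group labelled WT+ZnO NPs received zinc oxide nanoparticles in this vehicle at 2 mg/cm². The KO group carries floxed *Cdc42* deleted by Cre under the keratin K5 promoter, which is active in basal keratinocytes and hair follicle epithelium, and received the vehicle, and the group labelled KO+ZnO NPs has that genotype and received the nanoparticles.

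The hair shaft is built by dividing matrix cells of a growing follicle, which leave the matrix, fill with hair keratins and then with keratin-associated proteins, and harden as disulfide bonds form between them. High-sulfur and ultra-high-sulfur members are rich in cysteine, and high-glycine-tyrosine members are rich in those residues. Shaved skin in the resting phase of the hair cycle makes little new shaft, whereas growing follicles make these transcripts in abundance.

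The libraries were first set against their labels. Total counts lay between 21076320 and 28867802 per library, and skin markers such as *Krt14* and *Col1a1* belonged to lists that summed to at least 6256 CPM (each gene's share of a library's counts on a fixed scale, with edgeR's TMM factors) in every library. *Cdc42* was at 606.1, 628.4 and 616.3 CPM in WT, at 415.4, 464.0 and 439.8 in KO, at 365.0, 453.0 and 313.5 in libraries labelled KO+ZnO NPs, and at 310.7, 350.1 and 317.4 in those labelled WT+ZnO NPs, so it went against the label WT+ZnO NPs. The sum of 4 Y-linked genes' transcripts was 191.7 to 241.7 CPM in 5 libraries, namely all 3 labelled WT+ZnO NPs, KO replicate 1 and the library labelled KO+ZnO NPs replicate 1. They were at most 0.0504 CPM in the other 7. The paper describes the KO mice as female. Since every library labelled WT+ZnO NPs and no WT library held Y-linked transcripts, the effects of sex and ZnO NPs cannot be told apart in that comparison. No source used here says whether the mice of a group shared litters or cages.

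The *Krtap* transcripts were nearly absent from WT skin and reached up to 4399.9 CPM in single libraries of the other groups. Their summed level was 2.18, 1.16 and 2.04 CPM in the 3 WT libraries. It was 294.7, 1364 and 591.9 CPM in libraries labelled WT+ZnO NPs. In KO it was 4399.9, 1.77 and 212.6 CPM, and in libraries labelled KO+ZnO NPs 2084, 28.98 and 8.14 CPM. The WT and WT+ZnO NPs groups did not overlap, while KO and KO+ZnO NPs each held 1 library at 2084 CPM or more and at least 1 below 10 CPM. KO replicate 2 lay within the range of WT. In bulk skin, fewer cells making a transcript and less of it per cell cannot be told apart.

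**Figure D1:**
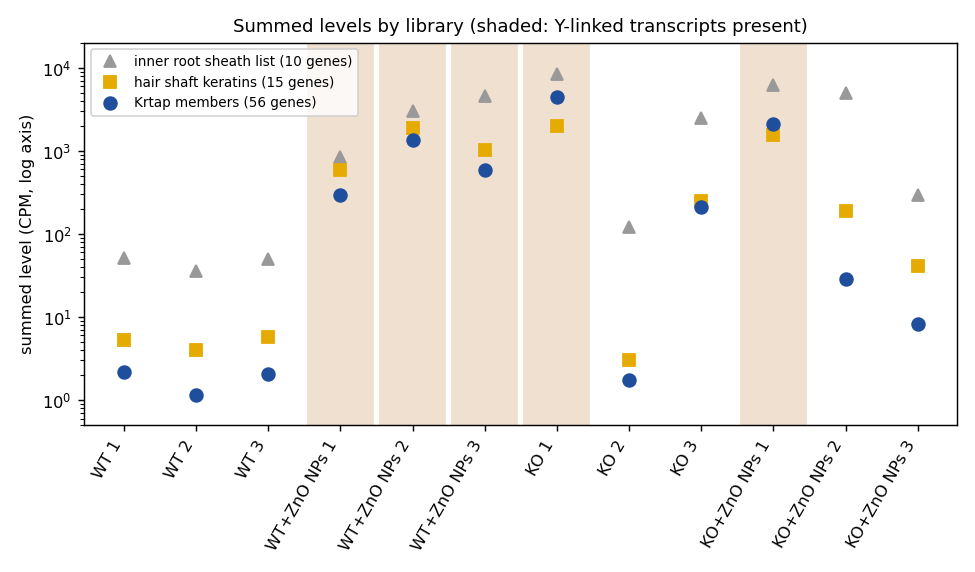
Summed level in CPM (log axis) of the 56 *Krtap* members (circles), 15 hair shaft keratins (squares) and 10 inner root sheath genes (triangles) in each of the 12 libraries, with 1 point per library and list; shading marks the 5 libraries with Y-linked transcripts. The *Krtap* sum spans 1.16 to 4399.9 CPM, and the shaded libraries hold the 5 highest sums, with KO replicate 3 next at 212.6 CPM.

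The libraries with the most *Krtap* transcripts were thus the 5 with Y-linked transcripts, followed by KO replicate 3, which held none. For 27 members, all of them among the 54 that passed edgeR's filter on low counts, all 5 libraries with Y-linked transcripts lay above all 7 others, beside 1.39% of all 18822 genes tested. A count was found for 5, 10 and 18 members in the WT libraries, 53, 56 and 56 in those labelled WT+ZnO NPs, 56, 6 and 51 in KO and 56, 31 and 28 in those labelled KO+ZnO NPs.

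The most abundant members per kilobase of exon were *Krtap8-1* and *Krtap7-1*, with means of 154.8 and 123.3 CPM per kb over the 12 libraries, ahead of *Krtap22-2* at 76.5, *Krtap6-5* at 49.6, *Krtap6-1* at 44.5 and *Krtap11-1* at 39.1. KO replicate 1 set the order of the last 3, since *Krtap11-1* was at 156.2 CPM per kb there, below *Krtap6-5* at 419.0 and *Krtap6-1* at 354.2, and above both in KO replicate 3 and in every library that received ZnO NPs by its label. All 6 lie on chromosome 16. *Krtap8-1* (ENSMUSG00000059632, chr16:89487379-89487952, minus strand) encodes a protein of 61 residues, 47.5% of them glycine or tyrosine. Its level was 0, 0 and 0.128 CPM in WT, 60.8, 196.1 and 52.1 in libraries labelled WT+ZnO NPs, 509.3, 0.0402 and 18.4 in KO, and 219.8, 8.62 and 0.653 in those labelled KO+ZnO NPs. The 3 WT libraries and KO replicate 2 were at or near 0, and all others lay above them.

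*Krtap7-1* (ENSMUSG00000056706, chr16:89507703-89508323, minus strand) encodes a protein with 29.9% glycine and tyrosine. Its level was 0, 0.0351 and 0.0425 CPM in WT, 50.4, 179.7 and 61.0 in libraries labelled WT+ZnO NPs, 441.8, 0 and 17.1 in KO, and 161.6, 6.75 and 0.610 in those labelled KO+ZnO NPs. The order of the libraries was nearly that of *Krtap8-1*, with KO replicate 1 highest and the WT libraries and KO replicate 2 lowest. *Krtap11-1* (ENSMUSG00000091212, chr16:89570176-89571183, minus strand), which encodes a high-sulfur protein of the cortex, was at 0.0420, 0 and 0 CPM in WT, 17.6, 132.3 and 39.5 in libraries labelled WT+ZnO NPs, 157.4, 0 and 12.2 in KO, and 108.1, 4.89 and 1.39 in those labelled KO+ZnO NPs. Here WT+ZnO NPs replicate 2 came close to KO replicate 1.

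These 3 genes held 69.9% of the 575 member counts in KO+ZnO NPs replicate 2 (95% exact Clopper-Pearson interval 66.0 to 73.6%, which covers counting error only). In the 6 libraries with at least 1000 member counts they held between 22.4% (KO replicate 3) and 43.7% (WT+ZnO NPs replicate 1). In KO+ZnO NPs replicate 3 they held 32.6% of 187 member counts (26.0 to 39.8%).

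**Figure D2:**
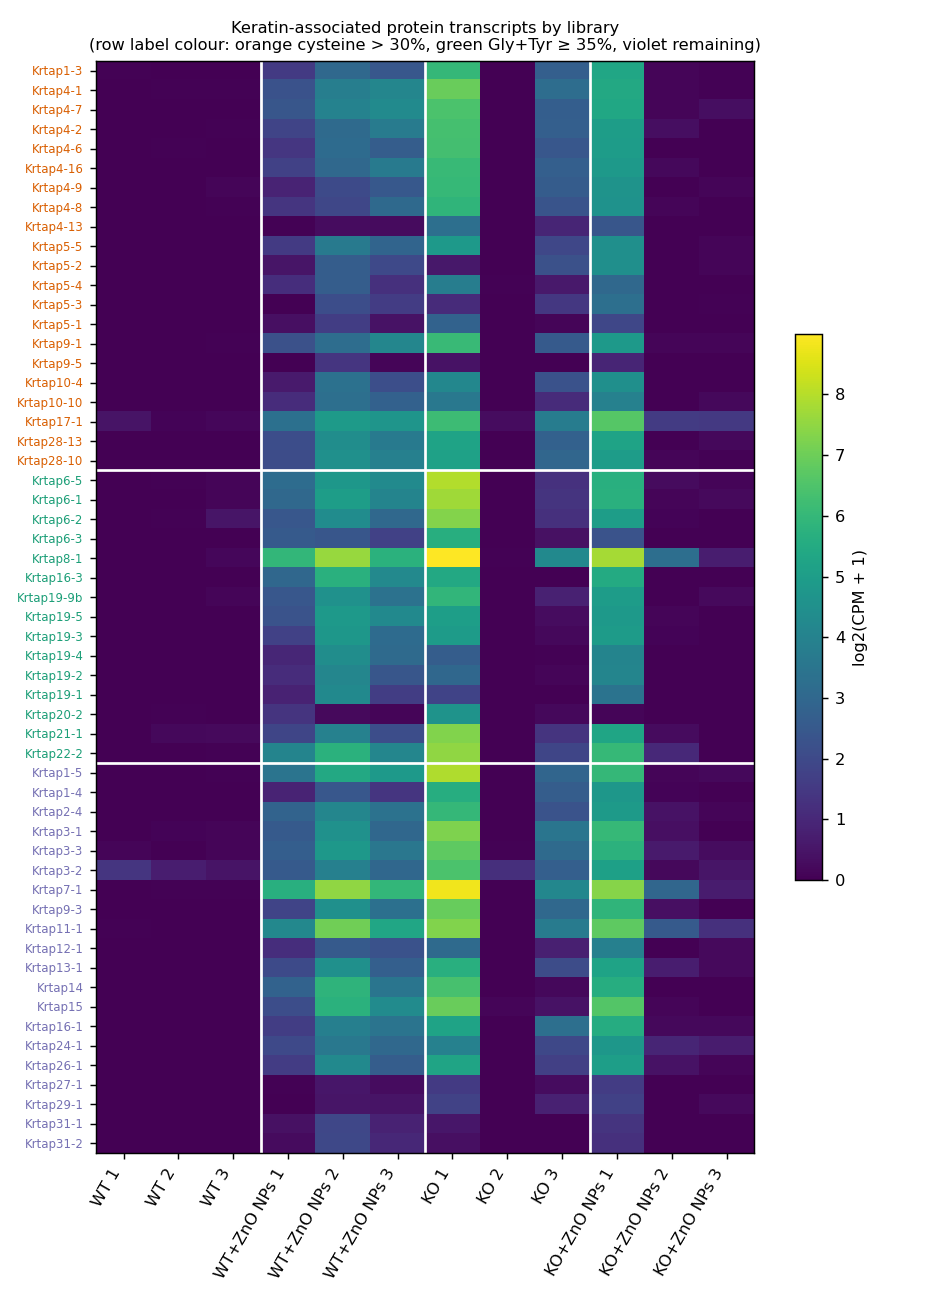
Level of each of the 56 *Krtap* members as log2(CPM + 1), with 1 row per gene and 1 column per library; row labels are coloured by composition of the encoded protein (orange, cysteine over 30%; green, glycine plus tyrosine at least 35%; violet, remaining) and white lines separate groups and classes. The WT columns and KO replicate 2 are dark in nearly every row, KO replicate 1 is brightest for 39 members, and most green rows are darker than most orange rows in KO replicate 3, apart from *Krtap8-1*, the highest member there at 18.4 CPM.

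Among the cortex members with high sulfur, *Krtap1-5*, *Krtap3-1* and *Krtap9-3* peaked in KO replicate 1 at 241.7, 153.7 and 118.9 CPM and reached 41.8, 22.2 and 22.0 CPM in WT+ZnO NPs replicate 2. Among the high-glycine-tyrosine members, *Krtap6-5*, *Krtap6-1*, *Krtap22-2* and *Krtap6-2* were at 249.3, 210.4, 182.3 and 161.1 CPM in KO replicate 1. Each was at or below 0.425 CPM in every WT library. Of the remaining subfamilies, the leading member in KO replicate 1 ranged from 154.5 CPM for *Krtap21-1*, a high-glycine-tyrosine gene, to 0.468 CPM for *Krtap31-1*. *Krtap4-1*, an ultra-high-sulfur gene of the cortex, was at 120.4 CPM there.

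KO against WT asked what the deletion of *Cdc42* did in skin without nanoparticles. The members were at 0.298 to 509.3 CPM in KO replicate 1, while their sum in KO replicate 2 was within the WT range, so the groups overlapped in their sums. Of the 54 members that passed edgeR's filter on low counts, 0 passed the adjusted threshold of 0.05 in either direction (lowest adjusted p = 0.0579 for *Krtap7-1* by edgeR's quasi-likelihood test, Benjamini-Hochberg adjusted), beside 4.61% of all 18822 genes tested higher and 3.58% lower. At an unadjusted p below 0.05 there were 45, beside 26.1% of all genes, and DESeq2's Wald test on the same libraries called 42 of the 48 members to which it gave an adjusted p, beside 13.5% of all 22224 genes with one. With the presence of Y-linked transcripts as a covariate there were 0 calls (36 at an unadjusted p below 0.05), beside 5.11% of all genes, and the median log2 fold change of the tested members was 6.11 in place of 10.38. Since 34 members had 0 counts in all 3 WT libraries, the size of these fitted values depends on how the fit treats 0. Without KO+ZnO NPs replicate 1 the count was 17, without KO replicate 2 it was 4, and without KO+ZnO NPs replicate 3 it was 3, beside 8.404, 4.752 and 10.58% of all genes. Leaving out KO replicate 1 left 0 calls, beside 4.04% of all genes, 10 members at an unadjusted p below 0.05 and a median log2 fold change of 6.45. Leaving out any 1 WT library left 0 calls, beside 1.94 to 3.99% of all genes, and 27 to 30 members at an unadjusted p below 0.05. All 12 libraries share 1 estimate of the spread in these fits. Within the 7 libraries that lacked Y-linked transcripts, where WT met KO replicates 2 and 3, 0 of 9 members that could be tested passed (9 at an unadjusted p below 0.05), beside 3.745% of all 18532 genes tested there. Members near 0 in WT passed the filter of that fit only through other libraries in which they were high, so these counts are no test of the set.

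Libraries labelled WT+ZnO NPs, set against WT, gave the only calls of the edgeR fit to all 12 libraries with the low-count filter and no term beyond the group. For 53 of 56 members every WT+ZnO NPs library lay above every WT library, and of the 54 tested members this held for 52, beside 30.1% of all genes tested. In 52 members no WT library held more than 3 counts, so their folds can be given only as lower bounds against that floor, a mean of 0.120 CPM. *Krtap8-1* was at least 861.5-fold higher (103.0 ± 80.7 CPM, SD, n = 3), *Krtap7-1* at least 811.6-fold (97.0 ± 71.8 CPM) and *Krtap11-1* at least 528.0-fold (63.1 ± 60.9 CPM). The SDs were large beside the means, since replicate 2 held the highest level of all 3 genes.

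With WT at its floor or at its measured level, the median fold over the 56 members was 67.2, and 46 of the 52 bounds were at least 10-fold. The median log2 fold change of all genes tested was 0.06. The members that WT lacked passed the filter through the libraries in which they were high, so these values describe them and were not tested as a set. Another 5 bounds lay between 200 and 250, those of *Krtap22-2* (238.2), *Krtap1-5* (222.6), *Krtap16-3* (213.0), *Krtap15* (210.0) and *Krtap14* (203.5). These use the group mean, and in their lowest treated library the 5 genes were 130.5, 84.6, 59.2, 28.4 and 51.5 times the floor. In *Krtap4-13*, *Krtap27-1* and *Krtap29-1* the treated libraries were themselves near the floor, at 0 to 0.457 CPM.

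Adjusted p-values below 0.05 were reached by 11 members, all higher, which is 20.4% of those tested beside 20.8% of all genes higher and 22.1% lower. A share this near to that of all genes is read as no result about the members. At an unadjusted p below 0.05 there were 44 of 54, beside 51.6% of all genes, and DESeq2 called 40 of the 48 to which it gave an adjusted p, beside 37.2%, so the count and its distance from that of all genes depended on the tool. The lowest were those of *Krtap11-1* (0.0173), *Krtap7-1* (0.0221) and *Krtap8-1* (0.0242, Benjamini-Hochberg adjusted, quasi-likelihood test of edgeR). The other members called were *Krtap17-1*, *Krtap24-1*, *Krtap31-2*, *Krtap22-2*, *Krtap9-1*, *Krtap1-5*, *Krtap3-3* and *Krtap31-1*.

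*Krtap17-1* (ENSMUSG00000078252, chr11:99993234-99993994, minus strand), an ultra-high-sulfur gene of the hair cuticle with 35.8% cysteine, could be given a fitted fold because WT held counts. Its level was 0.378, 0.0702 and 0.128 CPM in WT and 9.001, 28.7 and 24.9 CPM in libraries labelled WT+ZnO NPs. Each treated library lay above each WT library, and the log2 fold change was 6.76 (approximate standard error 2.21, adjusted p = 0.0299 by edgeR's quasi-likelihood test, Benjamini-Hochberg adjusted). With the presence of Y-linked transcripts as a covariate, its log2 fold change was 2.10 and 0 members passed the threshold (1 at an unadjusted p below 0.05), beside 20.7% of all genes. The median log2 fold change of the 54 tested members was 2.32 in that fit and 9.40 without the covariate. Both are fitted values without the floor, and their size depends on how the fit treats the 0 counts of WT. Every library labelled WT+ZnO NPs and no WT library held Y-linked transcripts. The covariate was therefore estimated from KO and KO+ZnO NPs, where replicate 1 alone held them. In each of these groups that library also held the highest *Krtap* sum. The fit carried its difference from the other replicates over to the comparison with WT. The smaller fold changes with the covariate therefore rest on those KO and KO+ZnO NPs libraries. This fit cannot tell sex and ZnO NPs apart, and whether sex accounts for the rise was not tested.

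The number of calls moved with the libraries in the fit. Leaving out any 1 of the 3 WT libraries left 0 calls, beside 31.0 to 33.5% of all genes, and leaving out WT+ZnO NPs replicate 1, 2 or 3 left 6, 3 and 3, beside 37.2, 36.6 and 30.7% of all genes. The fitted median log2 fold change of the members was 9.37 to 10.14 without a WT library and 8.65 to 9.61 without a treated one. Without KO replicate 1, 2 or 3 there were 24, 24 and 6, and without KO+ZnO NPs replicate 1, 2 or 3 there were 43, 17 and 19, beside 40.0 to 46.7% of all genes in these 6 fits. In a fit of the 6 libraries of this comparison alone, all 47 members that passed its filter were called, beside 49.0% of all 17838 genes tested there. Members near 0 in WT passed that filter only through treated libraries in which they were high, so this count is no test of the set.

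Libraries labelled KO+ZnO NPs, set against KO, did not differ in *Krtap* transcripts beyond their spread. Both groups spanned from below 10 CPM to at least 2084 CPM in their sums, which overlapped. No member of 54 was called (0 at an unadjusted p below 0.05 beside 32.6% of all genes, 0 of 48 by DESeq2 beside 20.2%, lowest adjusted p = 0.296 by edgeR's quasi-likelihood test, Benjamini-Hochberg adjusted), beside 6.57% of all genes higher and 8.09% lower. The median log2 fold change over the tested members was -0.85, beside 0.01 over all genes. It was 2.68 without KO replicate 1 and -7.86 without KO+ZnO NPs replicate 1, so its sign rested on single libraries. Without KO+ZnO NPs replicate 1 there were 2 calls, both lower, beside 16.4% of all genes, and with Y-linked transcripts as a covariate there was 1, lower, beside 12.8%.

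Libraries labelled KO+ZnO NPs, set against those labelled WT+ZnO NPs, also gave 0 calls of 54 (0 at an unadjusted p below 0.05 beside 24.8% of all genes, 0 of 48 by DESeq2 beside 11.6%, lowest adjusted p = 0.398 by edgeR's quasi-likelihood test, Benjamini-Hochberg adjusted), beside 2.13% of all genes higher and 1.16% lower. KO+ZnO NPs replicate 1 lay above all libraries labelled WT+ZnO NPs in its *Krtap* sum, and replicates 2 and 3 lay below all of them. The tested members had a median log2 fold change of 0.08, beside 0.04 over all genes. It was -6.30 without KO+ZnO NPs replicate 1 and 1.35 with Y-linked transcripts as a covariate. Both fits gave 0 calls (34 and 3 members at an unadjusted p below 0.05), beside 57 and 1 of all genes. Within the 5 libraries with Y-linked transcripts, KO+ZnO NPs replicate 1 and KO replicate 1 each stand alone in their group. The spread of that fit came only from the libraries labelled WT+ZnO NPs, so no calls are drawn from it. The median log2 fold change of the members was 1.64 there.

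The interaction of genotype and ZnO NPs compared the difference between treated and untreated libraries in the 2 genotypes. It was negative for all 54 tested members, with 0 calls (26 at an unadjusted p below 0.05 beside 27.4% of all genes, 33 of 47 by DESeq2 beside 16.5%, lowest adjusted p = 0.0705 by edgeR's quasi-likelihood test, Benjamini-Hochberg adjusted), beside 5.08% of all genes higher and 3.59% lower. Without KO+ZnO NPs replicate 1 the count was 29 and without KO replicate 2 it was 4, all lower, beside 7.78 and 6.52% of all genes. The median over the tested members was -16.98 without KO+ZnO NPs replicate 1 and -5.79 without KO replicate 1. Without KO replicate 1 there were 0 calls, beside 3.32% of all genes, and 3 members at an unadjusted p below 0.05. Without any 1 WT library there were 0 calls, beside 2.38 to 4.87% of all genes, and 7 to 10 members at an unadjusted p below 0.05. With Y-linked transcripts as a covariate there were 0 calls (4 at an unadjusted p below 0.05), beside 0.664% of all genes, and the median log2 value over the tested members was -4.37 in place of -9.83. The interaction shares its WT libraries with both comparisons against WT.

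The members were divided by the composition of the encoded proteins, translated from the GENCODE coding sequences. Cysteine exceeded 30% of residues in 21 members, glycine plus tyrosine reached 35% in 15 others, and 20 remained. In the 6 libraries with at least 1000 member counts, the remaining members held between 40.1% and 47.3% of the *Krtap* sum. The glycine-tyrosine class held 42.8, 38.7 and 31.0% in libraries labelled WT+ZnO NPs, 39.0% in KO replicate 1, 30.2% in KO+ZnO NPs replicate 1 and 13.5% in KO replicate 3. The cysteine class held 14.0 to 28.9% in libraries labelled WT+ZnO NPs, then 20.7% in KO replicate 1, 26.4% in KO+ZnO NPs replicate 1 and 41.8% in KO replicate 3. The 95% exact Clopper-Pearson intervals of these shares reached at most 1.41 percentage points to either side. KO replicate 3 thus stood apart from KO replicate 1, both in the amount and in the make-up of its *Krtap* transcripts.

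**Figure D3:**
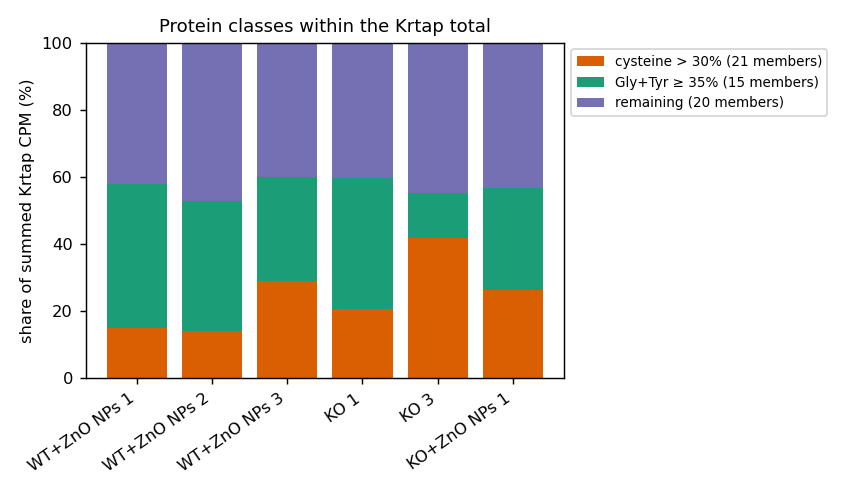
Share of the summed *Krtap* CPM (%) held by each composition class, stacked to 100%, in the 6 libraries with at least 1000 member counts. The glycine-tyrosine class (green) falls between 30.2 and 42.8% in 5 libraries and is 13.5% in KO replicate 3, where the cysteine class (orange) is 41.8%.

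Gene by gene, KO replicate 3 was at a median of 8.45% of the level in KO replicate 1 over the cysteine class and at 6.54% over the remaining members. Over the glycine-tyrosine class the median was 0.732%, and no member of it exceeded 3.60%. Between KO+ZnO NPs replicate 1 and KO replicate 1 the class medians were closer together, at 54.6% for cysteine, 71.2% for the remaining members and 43.2% for glycine-tyrosine. KO replicate 1 was the highest library for 39 members, KO+ZnO NPs replicate 1 for 10 and WT+ZnO NPs replicate 2 for 7. None of the 10 belonged to the glycine-tyrosine class, whereas 4 of the 7 did.

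**Figure D4:**
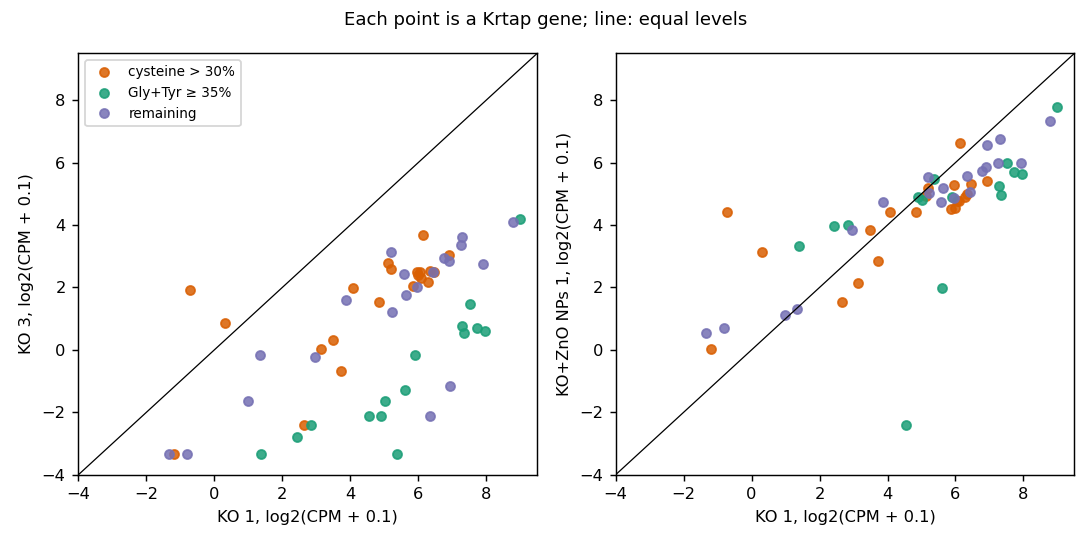
Level of each of the 56 *Krtap* members in KO replicate 3 (left) and in KO+ZnO NPs replicate 1 (right) against KO replicate 1, all as log2(CPM + 0.1), with points coloured by composition class and a line at equal levels. On the left the green glycine-tyrosine genes lie well below the orange cysteine genes of like abundance in KO replicate 1 (class medians 0.732 and 8.45%), and on the right the classes run together (43.2 and 54.6%).

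Under 10 counts were found for 15 members in KO replicate 3, 8 of the 15 glycine-tyrosine genes, 2 of the 21 cysteine genes and 5 of the 20 others, and 11 of these lie on chromosome 16. *Krtap16-3* (59.3% glycine and tyrosine) had 978 counts in KO replicate 1, 1010 in KO+ZnO NPs replicate 1 and 0 in KO replicate 3. *Krtap14* had 1909, 1094 and 3 counts in these libraries. *Krtap15* had 2861, 2176 and 8. These 3 genes and the 5 of subfamily 19 with so few counts summed to 7559 counts in KO replicate 1, 6546 in KO+ZnO NPs replicate 1 and 22 in KO replicate 3. *Krtap14* and *Krtap15* overlap on opposite strands, so reads may have been divided between them or lost.

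The subfamilies shifted in the same libraries. Subfamily 19 (6 members) held 0.601% of the member counts in KO replicate 3 (exact interval 0.403 to 0.861%) and between 3.10 and 9.65% in the other 5 libraries. Subfamily 6 (4 members) ranged from 15.2% in KO replicate 1 to 2.17% in KO replicate 3. Subfamily 4 (8 members), ultra-high-sulfur genes of the cortex, held 5.88, 4.18 and 13.0% in libraries labelled WT+ZnO NPs, 12.8% in KO replicate 1, 18.6% in KO replicate 3 and 10.6% in KO+ZnO NPs replicate 1. Its share in WT+ZnO NPs replicate 3 was closer to that of the KO libraries than to those of the other two in its own group.

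By position, 23 members lie on chromosome 11, 23 on chromosome 16, 5 on chromosome 7, 3 on chromosome 10 and 2 on chromosome 1. The chromosome 16 genes held 71.8, 73.4 and 56.1% of the *Krtap* sum in libraries labelled WT+ZnO NPs, 59.6% in KO replicate 1, 54.7% in KO+ZnO NPs replicate 1 and 31.6% in KO replicate 3. The chromosome 11 genes held 23.6, 19.8 and 35.1%, then 36.9, 36.8 and 55.6%. Position and composition overlap, since all 15 glycine-tyrosine genes are on chromosome 16.

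A few genes departed from the order of libraries shared by the rest and were picked out after their values were seen. *Krtap5-2* (chr7:142174535-142176005, minus strand), an ultra-high-sulfur gene, had 12 counts in KO replicate 1 and 490 in KO+ZnO NPs replicate 1, a level 41.9-fold higher (exact 95% interval 23.8 to 81.6, counting error only). It had 11, 116 and 75 counts in libraries labelled WT+ZnO NPs and 83 in KO replicate 3. *Krtap5-3* had 27 counts in KO replicate 1 and 198 in KO+ZnO NPs replicate 1, 7.52-fold higher (5.02 to 11.7). Their neighbours *Krtap5-1* and *Krtap5-4* were higher in KO replicate 1, at 6.17 and 13.1 CPM, than in KO+ZnO NPs replicate 1, at 2.79 and 7.15 CPM. *Krtap5-2* shares 28.7% and *Krtap5-3* 5.21% of its 50-base stretches with other genes, so part of their reads may not have been counted.

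*Krtap20-2*, a glycine-tyrosine gene, departed the other way. It had 549 counts in KO replicate 1, 39 in WT+ZnO NPs replicate 1 and at most 4 in any other library, and the level in KO replicate 1 was 267.6 times that in KO+ZnO NPs replicate 1 (2 counts, exact interval 73.7 to 2215). *Krtap6-3* had 1143 counts in KO replicate 1 and 122, 94 and 60 in libraries labelled WT+ZnO NPs. It had 89 in KO+ZnO NPs replicate 1, so that KO replicate 1 was 12.5-fold higher (10.1 to 15.7). For both genes replicate 1 was the highest of the libraries labelled WT+ZnO NPs, whereas 54 of the 56 members were lower there than in replicate 2.

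The few counts in WT came in large part from 2 genes of chromosome 11. *Krtap3-2* (chr11:99555823-99556853, minus strand), a high-sulfur gene of the cortex, and *Krtap17-1* gave 81 of the 133 member counts in WT, and 34 members had 0 counts in all 3 WT libraries. In WT replicate 3 they gave 9 and 3 of 48 counts, and *Krtap6-2* of chromosome 16 was the highest member with 10. *Krtap3-2* had 39, 19 and 9 counts in WT and 33 in KO replicate 2, or 75.0, 57.6, 18.8 and 75.0% of the member counts there (exact intervals 61.1 to 86.0, 39.2 to 74.5, 8.95 to 32.6 and 59.7 to 86.8%). It had 3 and 10 counts in KO+ZnO NPs replicates 2 and 3, whose *Krtap* sums were higher. *Krtap3-2* was chosen after its values were seen, and it shares 28.9% of its 50-base stretches with other genes.

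The partners of the members in the shaft are the hair keratins, and 15 of the 16 listed had a row under their symbol. They summed to 5.29, 3.97 and 5.82 CPM in WT, 580.6, 1885 and 1016 in libraries labelled WT+ZnO NPs, 1998, 3.05 and 246.5 in KO, and 1561, 187.0 and 40.9 in those labelled KO+ZnO NPs. Against WT, 10 of 15 rose in libraries labelled WT+ZnO NPs (beside 20.8% of all genes) and 1 in KO (beside 4.61%), 1 had a lower interaction (beside 3.59%), and 0 were called in the other comparisons. The counts of the other lists are to be read against the shares of all genes given with each comparison. The *Krtap* sum was 2.20 times the hair keratin sum in KO replicate 1 and 1.33 times in KO+ZnO NPs replicate 1. It was 0.508, 0.724 and 0.583 times in libraries labelled WT+ZnO NPs and 0.862 times in KO replicate 3. In KO+ZnO NPs replicates 2 and 3 it was 0.155 and 0.199 times.

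The inner root sheath moulds the shaft and makes its keratins in a separate layer of the follicle. Its 10 listed genes summed to 4985 CPM in KO+ZnO NPs replicate 2, between the 4607 CPM of WT+ZnO NPs replicate 3 and the 6189 CPM of KO+ZnO NPs replicate 1. The *Krtap* sums of these 3 libraries were 28.98, 591.9 and 2084 CPM. KO+ZnO NPs replicate 2 thus held an inner root sheath sum at the level of the *Krtap*-rich libraries, a hair keratin sum at an intermediate level and few *Krtap* transcripts. *Krt71* was at 2014 CPM and *Krt25* at 1711 CPM in that library, beside 8.62 CPM of *Krtap8-1*. Not all genes of the list were high there. *Krt26*, *Krt72* and *Krt74* were at 3.73, 7.21 and 1.41 CPM, below the lowest values of the libraries with Y-linked transcripts, 22.8, 21.3 and 6.30 CPM. *Krt35* held 118.3 CPM of the hair keratin sum in that library, and every other hair keratin was at or below 18.5 CPM. All 10 genes rose in libraries labelled WT+ZnO NPs and 6 in KO, and 5 had a lower interaction. The sum in WT was 35.9 to 51.7 CPM and in KO replicate 2 it was 122.0 CPM. Most of it there came from *Gata3*, at 31.4 to 43.6 CPM in WT and 78.2 in KO replicate 2, and *Tgm3*, at 3.55 to 6.16 and 32.6. Each keratin of the list was at or below 1.61 CPM in WT and 8.20 CPM in KO replicate 2.

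Regulators of shaft differentiation were listed too. *Hoxc13*, a homeobox gene needed for the expression of hair keratins and keratin-associated proteins, was at 1.34, 0.386 and 1.57 CPM in WT, 92.3, 112.3 and 155.2 in libraries labelled WT+ZnO NPs, 48.5, 4.78 and 26.3 in KO, and 69.4, 17.6 and 14.7 in those labelled KO+ZnO NPs. Every library outside WT lay above WT. KO replicate 2 and KO+ZnO NPs replicates 2 and 3 were the lowest of these. The regulators of higher mean CPM, *Bmpr1a*, *Notch1* and *Dlx3*, were at 85.2 to 109.8, 75.3 to 79.8 and 6.32 to 13.4 CPM in WT and at 122.3 to 143.6, 133.3 to 226.2 and 107.8 to 304.0 CPM in libraries labelled WT+ZnO NPs. Of 13 listed regulators, 10 rose in libraries labelled WT+ZnO NPs against WT and 5 rose in KO against WT, 6 had a lower interaction, 1 fell in libraries labelled KO+ZnO NPs relative to KO, and 0 were called between the treated groups.

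Of the 10 genes listed as other hair shaft proteins, 8 rose in libraries labelled WT+ZnO NPs and 5 in KO, and 1 was lower in libraries labelled KO+ZnO NPs than in those labelled WT+ZnO NPs. The trichohyalin gene *Tchh*, placed in this list, was at 4415 CPM in KO replicate 1, 2983 in KO+ZnO NPs replicate 1, 1809.8 in KO+ZnO NPs replicate 2 and 3.58 to 5.82 in WT. Its level in KO+ZnO NPs replicate 2 was above the 126.7 to 763.5 CPM of the libraries labelled WT+ZnO NPs, which held more *Krtap* transcripts. The inner root sheath genes *Krt71* and *Krt25* were at 2014 and 1711 CPM in that library. Whether *Tchh* goes with the shaft or with the inner root sheath here was not tested. *Lgals7*, the gene of highest mean CPM in this list, was at 1911 to 2427 CPM in WT and at 1956 to 2616 CPM in libraries labelled WT+ZnO NPs, which overlap.

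Transcripts of other cells in the skin moved with some of these groups, and their part in the *Krtap* levels was not tested. The 10 cell cycle genes summed to 241.3 to 486.5 CPM in WT, 663.3 to 1372 in libraries labelled WT+ZnO NPs, 235.1 to 453.7 in KO and 695.6 to 823.6 in those labelled KO+ZnO NPs. All 10 rose in libraries labelled WT+ZnO NPs against WT and 7 in those labelled KO+ZnO NPs relative to KO, beside 20.8 and 6.57% of all genes. KO replicate 1, with the highest *Krtap* sum, held 270.6 CPM of them. The 8 melanocyte genes summed to 54.2 to 70.8 CPM in WT and 413.1 to 1241 in libraries labelled WT+ZnO NPs, where 7 rose and 1 fell, and to 120.7 CPM in KO replicate 1. Of the 9 resting follicle and stem cell genes, 4 rose and 2 fell between those groups, where 20.8% of all genes rose and 22.1% fell. Of the 10 interfollicular epidermis genes 1 rose and 6 fell, of the 10 adipocyte genes 7 fell, of the 8 dermal fibroblast genes 1 rose and 3 fell, and of the 9 skeletal muscle genes tested 0 were called.

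Because the members moved together from library to library, the sequences before their start sites were compared. RefSeq promoter windows on GRCm38.p6, from 250 bases before to 50 after the start, were found for 50 of the 56 members. The letters TATAAA on the gene's own strand, the core of the TATA box, began from 40 to 20 bases before the start in 31 of them (62.0%), beside 1.99% of all 32851 windows. By class these were 7 of 15 glycine-tyrosine genes, 12 of 17 cysteine genes and 12 of 18 others. Of the 15 members with under 10 counts in KO replicate 3, 7 had the letters there, and of the other 35 members 24 had them. The letters CTTTGNN, with A or T in each place of N, on either strand, a core bound by LEF1 and TCF factors, were found in 18 of the 50 windows (36.0%), beside 16.9% of all windows. They were in 11 of the 18 windows of the remaining members, 3 of 17 of the cysteine class and 4 of 15 of the glycine-tyrosine class. A match of letters is a description and was not tested for binding.

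The 100 bases before the start are shown for 6 members, 5′ to 3′ on the gene's strand, with TATAAA in capitals. *Krtap8-1* (chr16:89487953-89488052) and *Krtap11-1* (chr16:89571184-89571283) are called members of high level, *Krtap17-1* (chr11:99993995-99994094) and *Krtap3-2* (chr11:99556854-99556953) gave the most counts over the 3 WT libraries, and *Krtap16-3* (chr16:88962874-88962973) and *Krtap19-1* (chr16:88869411-88869510) had 0 counts in KO replicate 3. All 6 genes are on the minus strand.
Krtap8-1: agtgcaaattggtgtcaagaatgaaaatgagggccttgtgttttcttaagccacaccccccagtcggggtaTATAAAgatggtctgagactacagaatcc
Krtap11-1: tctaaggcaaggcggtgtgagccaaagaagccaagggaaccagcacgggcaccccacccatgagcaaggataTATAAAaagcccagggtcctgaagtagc
Krtap17-1: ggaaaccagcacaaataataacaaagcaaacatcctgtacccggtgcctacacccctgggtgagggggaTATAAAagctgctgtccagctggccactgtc
Krtap3-2: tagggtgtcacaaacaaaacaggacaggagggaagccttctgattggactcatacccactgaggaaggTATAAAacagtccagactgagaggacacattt
Krtap16-3: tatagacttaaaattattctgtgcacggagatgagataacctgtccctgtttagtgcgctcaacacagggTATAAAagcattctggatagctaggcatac
Krtap19-1: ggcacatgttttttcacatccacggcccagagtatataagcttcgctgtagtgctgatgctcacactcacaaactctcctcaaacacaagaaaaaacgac
The capitals begin at -29, -28, -31, -32 and -30 in the first 5, and the window of *Krtap19-1* holds none. It does hold the letters tatataa, a near match that the search for the exact letters does not count, here or in the shares above. The sequence element was thus present both in genes with counts in WT and in genes at 0 there.

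The members resemble each other in sequence, which limits single values. Of the 56, 15 share no 50-base stretch of their transcripts with another gene, among them *Krtap8-1*, *Krtap7-1*, *Krtap11-1*, *Krtap17-1* and *Krtap22-2*. Another 23 share over 10%, up to 81.3% in *Krtap4-13*, and 6 overlap another annotated gene. Levels of these members are uncertain to that extent, since reads that fit several genes are left out by the counter's default.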

How the data were processed

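The authors deposited whole-number counts of reads per gene, not normalized, for 12 libraries of skin RNA, identified by Ensembl gene. The paper names STAR and HTSeq for alignment and counting and a NEBNext kit, whereas the submitters' processing notes name HISAT2 2.0.5 and mm10 and the labels a TruSeq kit. Neither annotation release nor strand setting is given in the sources used here. Names were matched for 52489 of 52636 genes in GENCODE M21.

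The counts were tested in R 4.3.3 with the quasi-likelihood test of edgeR 4.0.16, with TMM factors, its filter on low counts (18822 genes kept), 1 coefficient per group over all 12 libraries and Benjamini-Hochberg adjustment over all genes tested. DESeq2 1.42.0 gave the other test. Levels are CPM on TMM-scaled library sizes, and a group whose libraries all held 3 counts or fewer was set to that floor. Standard errors are approximate, derived from each gene's F statistic. With 3 mice per group, p-values measure the spread between these samples. The script was tested on simulated counts.

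The genes named are the 12 members of highest mean CPM, the highest of each subfamily and the 3 called members with the largest change; others are said to be chosen afterwards, apart from members listed to complete a count or a class. The hair keratins, root sheath genes, regulators and other shaft proteins named are among the 4 of highest mean CPM in their list, apart from those named to show how a sum is made up. The members, lists and tests were chosen with earlier results of these data known. Alternatives were RLE factors, library size alone, no filter, DESeq2, the compared groups only, the replicate number as a block, Y-linked transcripts as a covariate and leaving out each library. The subsets of libraries with or without Y-linked transcripts were added after seeing the data. Replicates of a group differed beyond sampling noise, with a chi-square per degree of freedom of 37.4 to 161.8.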

Additional observations from a re-analysis of the deposited data

How the results depend on the processing

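Under RLE factors and library size alone, the counts of called members stayed within 1.5 times those given above in all 5 comparisons. Without the filter on low counts, 3 members were called for KO against WT, 21 for WT+ZnO NPs against WT and 1 for the interaction, each of 56 tested and beside 4.205, 22.1 and 3.27% of all genes. DESeq2 on all 12 libraries called 42, 40 and 33 in these, of 48, 48 and 47 with an adjusted p, beside 13.5, 37.2 and 16.5%. For WT+ZnO NPs against WT, edgeR on only the groups compared called 47 of 47 beside 49.0% and the covariate for Y-linked transcripts left 0 of 54 beside 20.7%, while for KO+ZnO NPs against KO that covariate gave 1 of 54 beside 12.8%. In the fit of only the groups compared, members near 0 in WT had passed the filter through the treated libraries in which they were high. Leaving out 1 library in turn gave 0 to 17 calls for KO against WT, beside 1.94 to 10.6% of all genes. It gave 0 to 43 for WT+ZnO NPs against WT, beside 30.7 to 46.7%, and 0 to 2 for KO+ZnO NPs against KO, beside 2.34 to 16.4%. For KO+ZnO NPs against WT+ZnO NPs it gave 0 to 0, beside 0.00517 to 8.26%, and for the interaction 0 to 29, beside 2.38 to 8.45%. The cause of these shifts was not tested, and no alternative turned the direction of a call. The replicate block moved the count to 44 of 54 for WT+ZnO NPs against WT, beside 42.9% of all genes, and to 6 of 54 for the interaction, beside 7.59%, and left 0 in the other comparisons. Same-numbered libraries did not deviate together in every pair (correlations of -0.343 to 0.429), so the numbers were not taken to pair the mice. With the replicate numbers as a block no other call changed. Depth limits WT and KO replicate 2 most, where 133 counts over 3 libraries and 44 counts held all members.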
